A study of Mus musculus with 29 samples.

Results

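Distal intergenic regions carrying acetylation of histone H3 at lysine 9 (H3K9ac) were described in cells of the embryonic mouse cortex. The regions were built by joining overlapping H3K9ac peaks from 15 ChIP-seq libraries. A merged region was kept when at least 3 libraries held it, when it lay outside every protein-coding gene body, and when it was more than 10 kb from both ends of any protein-coding gene (mouse build mm10). Of 56482 merged regions held by at least 3 libraries, 10097 met the rule. Another 39572 overlapped a protein-coding gene body, and 6813 lay within 10 kb of one. Only protein-coding genes entered the rule, so a distal region may overlap a long noncoding RNA or a microRNA gene.

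The cells came from mouse cortex at E16.5 and were separated by sorting nuclei into a Tbr2-positive and a Tbr2-negative population. Cortex had been treated with the histone deacetylase (HDAC) inhibitor trichostatin A (TSA) or with vehicle. H3K9ac was profiled in 4 Tbr2-positive TSA, 3 Tbr2-positive vehicle, 4 Tbr2-negative TSA and 4 Tbr2-negative vehicle libraries, each group with 1 input library. RNA was sequenced from 2 Tbr2-positive TSA, 3 Tbr2-positive vehicle, 2 Tbr2-negative TSA and 3 Tbr2-negative vehicle samples. The sources used here give no strain, no dose and no length of treatment, and do not say whether replicates were separate animals, so every p-value measures the spread between these libraries. The Tbr2-negative population is everything left by the sort and holds several cell types.

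H3K9ac marks active promoters and many active enhancers. Histone acetyltransferases write the mark and HDACs remove it. Tbr2, the protein of the gene Eomes, is a transcription factor of the basal (intermediate) progenitors that produce cortical projection neurons. Some distal acetylated regions in neural cells are promoters of long noncoding RNAs that carry microRNAs in their transcripts. Among these microRNAs, miR-9 and miR-124 are known for their abundance in neural progenitors and in neurons, and miR-137 for its role in neuronal maturation.

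Of the 10097 regions, 19 overlapped a microRNA hairpin of the RefSeq table for GRCm38.p6, and 12 of those were held by all 15 libraries. This hairpin set lacks the miR-124 genes. By gene annotation 23 regions overlapped a microRNA gene, 16 of them in all 15 libraries. The mature sequences of the hairpins in the widest of the hairpin regions are printed because the results below turn on their loci. Capitals mark the seed, bases 2 to 8 from the 5′ end, the stretch that pairs with target RNAs. No seed is shared between differently named microRNAs in this set. Mir9-1 on chromosome 3, Mir9-2 on chromosome 13 and Mir9-3 on chromosome 7 are separate loci that give the same miR-9-5p.
mmu-miR-9-5p: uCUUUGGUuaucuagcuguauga
mmu-miR-9-3p: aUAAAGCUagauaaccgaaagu
mmu-miR-125b-5p: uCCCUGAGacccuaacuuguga
mmu-miR-99a-5p: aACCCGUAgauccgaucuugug
mmu-let-7c-5p: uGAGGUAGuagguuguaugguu
mmu-miR-137-5p: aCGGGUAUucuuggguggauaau
mmu-miR-137-3p: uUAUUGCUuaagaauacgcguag

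Start windows of 3 noncoding genes are printed as examples, chosen after their values were seen. Each lies in a distal region held by 8 of 8 Tbr2-negative and by 0 of 7 Tbr2-positive libraries. Windows of Gm41854, Gm52506 and LOC115490388 also lie in distal regions held by 8 libraries and are not printed. Each window is 300 bases on the plus strand of GRCm38.p6 (mm10), taken from RefSeq. Snhg11, a small nucleolar RNA host gene, has its window at chr2:158375463-158375762. The window of 1110015O18Rik is at chr3:4798458-4798757, and that of 4632428C04Rik at chr16:30008417-30008716. Capitals mark matches to 3 searched motifs, each read on both strands: CAGCTG and CAGATG, which are E-box forms bound by proneural factors, and TATAAA, the TATA box.
Snhg11: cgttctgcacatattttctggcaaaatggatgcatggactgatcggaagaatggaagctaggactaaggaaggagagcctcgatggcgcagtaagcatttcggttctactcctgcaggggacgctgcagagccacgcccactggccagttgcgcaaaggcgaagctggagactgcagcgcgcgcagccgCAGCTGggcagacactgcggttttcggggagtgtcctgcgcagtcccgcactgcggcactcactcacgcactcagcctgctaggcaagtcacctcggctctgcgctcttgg
1110015O18Rik: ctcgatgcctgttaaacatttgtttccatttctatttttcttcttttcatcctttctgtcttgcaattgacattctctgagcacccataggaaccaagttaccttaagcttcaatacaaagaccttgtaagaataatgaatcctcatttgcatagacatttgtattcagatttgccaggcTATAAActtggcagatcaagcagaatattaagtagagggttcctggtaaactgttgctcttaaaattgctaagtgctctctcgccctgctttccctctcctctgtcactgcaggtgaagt
4632428C04Rik: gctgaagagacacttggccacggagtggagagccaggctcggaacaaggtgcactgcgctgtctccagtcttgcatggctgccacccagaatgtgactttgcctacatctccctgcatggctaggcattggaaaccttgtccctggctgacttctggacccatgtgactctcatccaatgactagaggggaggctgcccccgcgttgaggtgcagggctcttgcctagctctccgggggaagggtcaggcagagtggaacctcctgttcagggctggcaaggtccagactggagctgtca

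The 3 windows differ in composition. The Snhg11 window is 60% G and C with 21 CpG dinucleotides, the 1110015O18Rik window 39.3% with 2, and the 4632428C04Rik window 59.3% with 6. Snhg11 holds 1 CAGCTG, 1110015O18Rik holds 1 TATAAA, and none of the 3 motifs is in the window of 4632428C04Rik. Over all 32851 start windows of the table, CAGCTG is in 16.3%, CAGATG in 17.2% and TATAAA in 13.6%, so each match is of a common kind and is given as a description.

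The libraries of the series differed before any comparison of distal regions. The deposited lists held 31823 to 40053 peaks in the 4 Tbr2-positive TSA libraries and up to 82164 in the others, from 15173175 to 30267202 ChIP tags, and the input of the Tbr2-positive TSA group was the shallowest, at 20118388 tags. Each group has its own input and depth, so group and input cannot be told apart. Counts of width and presence calls between populations are also given without the Tbr2-positive TSA libraries where such a fit was made. Eomes RNA was 410, 370 and 548 CPM (read counts scaled to library size) in Tbr2-positive vehicle samples and 22.0, 13.9 and 18.2 CPM in Tbr2-negative vehicle samples, which fits the sort labels (edgeR log2 difference 4.62, adjusted p = 1.05e-06). In the same contrast 11 of 11 basal progenitor genes passed as higher and 11 of 11 interneuron genes as lower in Tbr2-positive samples. Deep-layer genes gave 0 higher and 6 lower of 8, and oligodendrocyte precursor genes 0 and 4 of 5. Upper-layer genes gave 3 and 4 of 9, radial glia genes 2 and 1 of 11. For Cajal-Retzius genes it was 2 and 1 of 6, and for microglial genes 0 and 2 of 6. Vascular and meningeal genes gave 0 and 1 of 8, and erythroid genes 0 and 0 of 3 tested. The summed interneuron level was 159 to 318 CPM in Tbr2-positive vehicle samples and 864 to 1043 CPM in Tbr2-negative vehicle samples, and that of basal progenitor genes 3153 to 4741 CPM in Tbr2-positive and 552 to 594 CPM in Tbr2-negative vehicle samples. The part of such cell types in each difference between populations below was not tested.

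Distal regions were fewer, narrower and less widely shared than other regions. They lay a median of 48.2 kb from the nearest protein-coding gene (quartiles 22.5 and 126 kb, highest 2187 kb). In 2151 cases the gap was 10 to 20 kb, in 2998 it was 20 to 50 kb, in 1922 it was 50 to 100 kb, in 2712 it was 100 to 500 kb, and in 314 it was more. The members nearest to the limit lay 10001, 10007 and 10009 bases from a gene, and the nearest regions left out lay 9994, 9990 and 9987 bases away. The median merged region spanned 542 bp, and the widest 30933 bp.

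All 15 libraries held 1386 of the distal regions, 13.7%, against 15623 or 33.7% of the other regions. Exactly 3 libraries held 22.4% of the distal and 21.3% of the other regions. Covered width, the summed length of the called peaks of 1 library in a region, had a median of 299 to 336 bp per library in distal regions and 510 to 743 bp in the others. Distal regions were narrower in 15 of 15 libraries (exact two-sided sign-flip test over libraries, p = 6.1e-05, the smallest it can give).

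**Figure D1:**
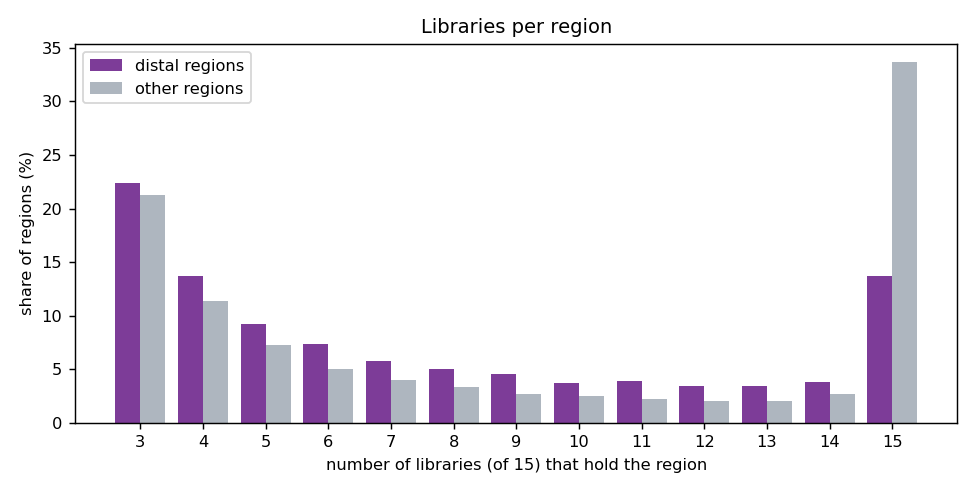
Share of regions, in percent, by the number of H3K9ac libraries that hold them, for distal regions (purple) and other regions (grey). At 15 libraries the distal bar stands at 13.7% and the other bar at 33.7%, while at 3 libraries they stand at 22.4% and 21.3%.

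Noncoding genes were common in the shared regions. A long noncoding gene overlapped 26.1% of all distal regions and 35.5% of those in all 15 libraries, against 22.2% of those in exactly 3. A start window of a noncoding gene was in 5.18% of distal regions, in 14.9% of those in all 15 libraries and in 1.99% of those in 3. Transfer RNA genes were in 43 regions, of which 27 were in all 15 libraries, and ribosomal RNA genes in 44, of which 17 were. Reads from near-identical copies of these repeated genes may be misplaced, so their values are uncertain.

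The regions were nearest to 3918 protein-coding genes, 1901 of which had a single region and 119 of which had 10 or more. Hrh1, a histamine receptor gene, had the most, 52 regions over 66.6 kb of chromosome 6, and the adjoining Atg7, an autophagy gene, had 46 over 68.2 kb. Gas8 had 34, Mn1 and Zfp608 had 33 each, and Pls3 had 30. Genes of cortical transcription factors were also among those with most regions: Pou3f3, a POU-domain factor of upper-layer neurons and progenitors, had 30 over 918 kb, and Sox2, a factor that maintains progenitors, had 27 over 726 kb. Of the gene lists considered, 20 of 23 cortical transcription factors, 8 of 9 upper-layer genes and 8 of 11 radial glia genes were nearest to a distal region, and 1 of 6 microglial and 0 of 4 erythroid genes were. The other lists lay between these: 5 of 8 vascular and meningeal, 3 of 5 oligodendrocyte precursor and 6 of 11 interneuron genes. For basal progenitor genes it was 6 of 11, for deep-layer genes 4 of 8 and for Cajal-Retzius genes 3 of 6. Over all 21883 protein-coding genes of the table the share was 17.9%. The part of intergenic length in these shares was not tested. Eomes had 3 regions, Pax6 had 2 and Neurog2 had 1.

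The 4 widest distal domains held by all libraries lay over microRNA genes. The widest, at chr13:83712787-83743719, holds Mir9-2 and the long noncoding gene C130071C03Rik and is 45.7 kb from Mef2c. It covered 29317, 29571, 29333 and 29765 bp in Tbr2-positive TSA libraries and 29834, 29873 and 30121 bp in Tbr2-positive vehicle libraries. Tbr2-negative libraries covered 30229, 29577, 30354 and 30027 bp with TSA and 30234, 30769, 30322 and 30269 bp with vehicle. Over all libraries both populations and both treatments overlap, although all 4 Tbr2-positive TSA values lie below the 3 Tbr2-positive vehicle values, which lie below the 4 Tbr2-negative vehicle values.

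The domain of Mir9-3hg at chr7:79496081-79522280, 28.2 kb from Polg, covered 23513, 23591, 23649 and 22439 bp in Tbr2-positive TSA and 25424, 25617 and 25558 bp in Tbr2-positive vehicle libraries. It covered 23817, 21321, 22812 and 20591 bp in Tbr2-negative TSA and 21902, 23450, 24221 and 23402 bp in Tbr2-negative vehicle libraries. With vehicle, all 3 Tbr2-positive libraries were above all 4 Tbr2-negative ones, and with TSA the populations overlap. The Mir9-1 domain at chr3:88197864-88222330, 20.5 kb from Rhbg, covered 22605 to 23881 bp in Tbr2-positive and 22742 to 23978 bp in Tbr2-negative libraries. The other domains among the 8 widest in all libraries hold Mir125b-1 within Mir100hg, Gm17750, Mir124a-1hg, Malat1 (an abundant nuclear RNA) and, at chr15:85670878-85682768, no noncoding gene of the table.

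Between Tbr2-positive and Tbr2-negative libraries, the width of the 1386 distal regions held by all 15 was compared with limma on log2 covered width, centred on each library's median region, in a fit of 17009 regions. In Tbr2-positive libraries 177 distal regions were wider and 222 narrower at an adjusted p below 0.05, which is 12.8% and 16% of them. Over all regions fitted, 17% were wider and 14% narrower, so the total is near the background. The split depends on the centring: without it 64 were wider and 518 narrower (2.75% and 35.1% of all regions fitted), and all 222 narrower and 64 of the 177 wider regions were called both ways. In bp, every Tbr2-positive library was above every Tbr2-negative one in 16 of the 1386 regions (1.15%) and below in 106 (7.65%), against a background of 0.482% and 9.48% of all regions fitted. All 16 and 85 of the 106 were also called with centring. The median distal difference was -0.03 on the log2 scale with centring and -0.26 without. Without the Tbr2-positive TSA libraries, 89 were wider and 69 narrower with centring (background 4.59% and 6.93%), and 47 wider and 106 narrower without (background 2.05% and 9.75%).

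The calls are given by width class, beside those of all regions fitted. Of 63 distal regions with a mean covered width of at least 2000 bp, 39 were wider and 8 narrower in Tbr2-positive libraries, and 15 and 18 without centring. Without the Tbr2-positive TSA libraries the counts were 22 and 4. Over all 1948 fitted regions of that width, 34.1% were wider and 19.5% narrower, and 6.57% and 44.6% without centring. Without the Tbr2-positive TSA libraries these shares were 12.3% and 13.8%, against 34.9% and 6.35% of the distal regions of that width. Of the 1323 smaller distal regions, 138 were wider and 214 narrower, 49 and 500 without centring, and 67 and 65 without the Tbr2-positive TSA libraries. Over all 15061 smaller regions fitted, 14.8% were wider and 13.2% narrower, and 2.25% and 33.8% without centring. The shares were 3.6% and 6.04% without the Tbr2-positive TSA libraries, against 5.06% and 4.91% of the smaller distal regions. Distal regions over a long noncoding gene gave 83 wider and 75 narrower of 492, with 28 and 189 without centring and 46 and 30 without the Tbr2-positive TSA libraries. Those over a microRNA hairpin, a set without the miR-124 genes, gave 5 and 3 of 12. These counts were 1 and 4 without centring and 3 and 1 without those libraries. Of the 17 over ribosomal RNA genes 0 were wider and 8 narrower, with 0 and 13 without centring and 0 and 2 without those libraries. No list was tested as a set.

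**Figure D2:**
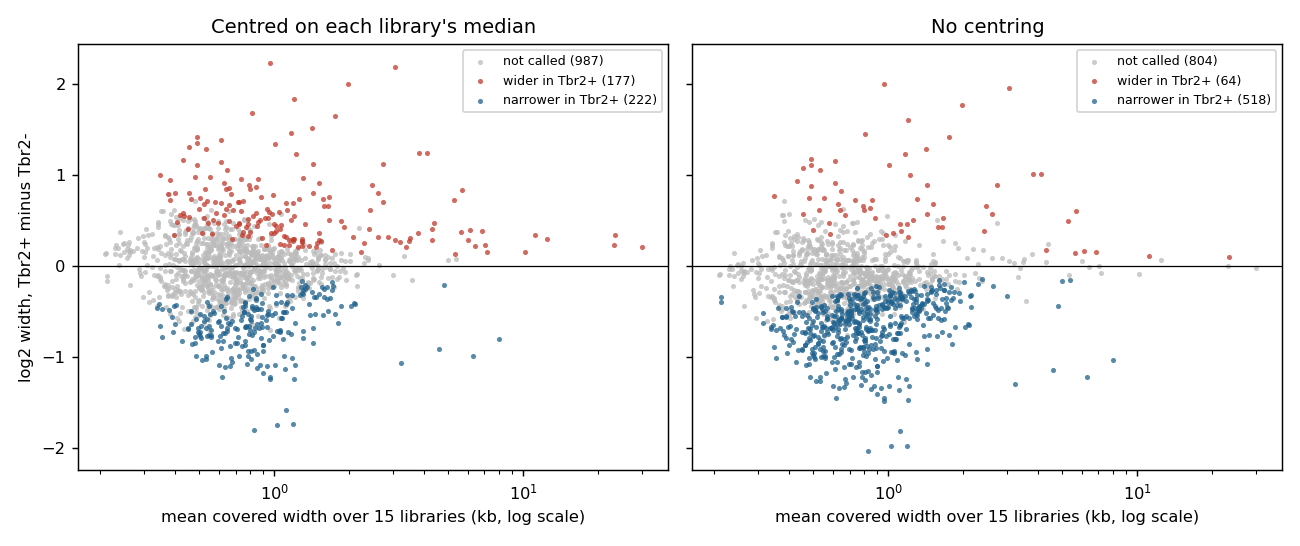
Log2 difference in covered width, Tbr2-positive minus Tbr2-negative libraries, against mean covered width in kb (log axis) for the 1386 distal regions held by all 15 libraries, with each library centred on its median region (left) and without centring (right). Coloured points passed limma at an adjusted p below 0.05: 177 wider (red) and 222 narrower (blue) with centring, 64 and 518 without, where the points sit lower.

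The 2 regions with the smallest p among the narrower ones were at the genes of miR-124, a microRNA enriched in neurons. The region at chr3:17788632-17798049, over Mir124-2hg and 150 kb from Cypt12, covered 3555, 3165, 3357 and 2889 bp in Tbr2-positive TSA and 4387, 4163 and 4287 bp in Tbr2-positive vehicle libraries. It covered 8469, 7930, 8809 and 8740 bp in Tbr2-negative TSA and 8729, 8689, 8725 and 8663 bp in Tbr2-negative vehicle libraries. Every Tbr2-positive library was below every Tbr2-negative one, at 0.503 times their width after centring (limma log2 difference -0.99, SE 0.045, adjusted p = 3.65e-11).

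The region at chr14:64585124-64596373, over Mir124a-1hg and 56.1 kb from Kif13b, covered 4865, 4833, 4708 and 4723 bp in Tbr2-positive TSA and 5958, 5947 and 4986 bp in Tbr2-positive vehicle libraries. Tbr2-negative libraries covered 10567, 10265, 10504 and 10495 bp with TSA and 10087, 10189, 11052 and 10927 bp with vehicle. The populations again do not overlap (limma log2 difference -0.80, SE 0.044, adjusted p = 4.28e-10). Around it, the separate regions at chr14:64573698-64576166 and chr14:64580957-64582250 were held by 8 of 8 Tbr2-negative and 0 of 7 Tbr2-positive libraries.

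The Mir137 region at chr3:118429722-118436577, 126 kb from Dpyd, whose 2 mature sequences are printed above, was narrower as well. It covered 2370, 2873, 2390 and 3143 bp in Tbr2-positive TSA and 3248, 3215 and 2405 bp in Tbr2-positive vehicle libraries, against 5775, 6181, 6794 and 6132 bp in Tbr2-negative TSA and 6269, 6208, 6264 and 5761 bp in Tbr2-negative vehicle libraries. All Tbr2-positive values lie below all Tbr2-negative ones (limma log2 difference -0.91, SE 0.078, adjusted p = 1.14e-07).

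The other 5 narrower regions named were smaller, and in each the populations did not overlap. Tunar, a long noncoding RNA known from stem cell and neural differentiation studies, overlapped chr12:105336014-105337943, which covered 177 to 888 bp in Tbr2-positive and 1401 to 1749 bp in Tbr2-negative libraries (limma adjusted p = 4.54e-06). The region at chr9:122571437-122573314 over 9530059O14Rik covered 146 to 791 bp in Tbr2-positive and 1290 to 1742 bp in Tbr2-negative libraries (limma adjusted p = 8.43e-06). Another, at chr13:28415780-28420822 over Gm40841, covered 905 to 2761 bp and 4135 to 4971 bp in Tbr2-positive and Tbr2-negative libraries (limma adjusted p = 1.03e-05). The remaining regions, chr8:109359291-109361407 near Pmfbp1 and chr2:144164750-144166430 over Banf2os, covered up to 1161 and 723 bp in Tbr2-positive and at least 1514 and 1188 bp in Tbr2-negative libraries.

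Among the regions that were wider in Tbr2-positive libraries, Dleu2 came first. Dleu2 is a long noncoding host gene of microRNAs, and its region at chr14:61643342-61649582 lies 30.5 kb from Kcnrg. It covered 4566, 5082, 5103 and 4580 bp in Tbr2-positive TSA and 5757, 5341 and 5842 bp in Tbr2-positive vehicle libraries. Tbr2-negative libraries covered 3307, 2112, 2494 and 2316 bp with TSA and 2671, 2479, 2625 and 2839 bp with vehicle. The lowest Tbr2-positive value is above the highest Tbr2-negative one, and the centred width was 2.36 times as large (limma log2 difference 1.24, SE 0.066, adjusted p = 2.12e-10).

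Mir99ahg and Mir100hg, the hosts of related microRNA clusters, each had a wider region. The Mir99ahg region at chr16:77499313-77506306, 383 kb from Usp25, covered 6226, 6599, 5914 and 5659 bp in Tbr2-positive TSA and 6288, 6776 and 6139 bp in Tbr2-positive vehicle libraries, against 5141, 4000, 4426 and 4419 bp in Tbr2-negative TSA and 4054, 4301, 4828 and 4427 bp in Tbr2-negative vehicle libraries. The Mir100hg region at chr9:41474796-41476147 covered 1213, 1169, 1137 and 1120 bp in Tbr2-positive TSA and 1237, 1352 and 1251 bp in Tbr2-positive vehicle libraries, against 532, 725, 557 and 356 bp and 240, 334, 455 and 477 bp in Tbr2-negative TSA and vehicle libraries. Neither region had overlapping populations (limma adjusted p = 6.86e-09 for Mir99ahg and 2.33e-07 for Mir100hg). The hairpins themselves gave less clear results: the domains of Mir99a with let-7c and of Mir125b-1, like those of Mir9-1 and Mir9-2, were called wider only after centring.

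The largest ratio among the 8 wider regions named was at chr2:115509559-115515875, over the long noncoding gene 3110099E03Rik and 65.0 kb from BC052040. It covered 4510, 4423, 4981 and 4643 bp in Tbr2-positive TSA and 5427, 5320 and 5462 bp in Tbr2-positive vehicle libraries. Tbr2-negative libraries covered 2253, 1473, 1799 and 658 bp with TSA and 1315, 1805, 872 and 833 bp with vehicle, without overlap (4.56 times after centring, limma adjusted p = 1.46e-07). The region at chr15:85682854-85686987, 47.9 kb from Ppara, came next at 3.99 times and covered 2286 to 3576 bp in Tbr2-positive and 507 to 1328 bp in Tbr2-negative libraries. A second region near Ppara, chr15:85663241-85670806, was also wider, at 6685 to 7230 bp in Tbr2-positive and 3820 to 6165 bp in Tbr2-negative libraries.

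Gm29260, a long noncoding gene on chromosome 1, overlapped chr1:41742912-41746660, which covered 3317 to 3722 bp in Tbr2-positive and 1462 to 2577 bp in Tbr2-negative libraries (limma log2 difference 1.12, adjusted p = 4.65e-08). The region at chr2:152047185-152051212, 30.3 kb from Scrt2, a zinc-finger repressor gene of newborn neurons, covered 2641 to 3825 bp in Tbr2-positive and 1708 to 2479 bp in Tbr2-negative libraries (limma adjusted p = 3.68e-08). All 16 regions named here as wider or narrower were also called without centring and, in a separate fit, without the Tbr2-positive TSA libraries.

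**Figure D3:**
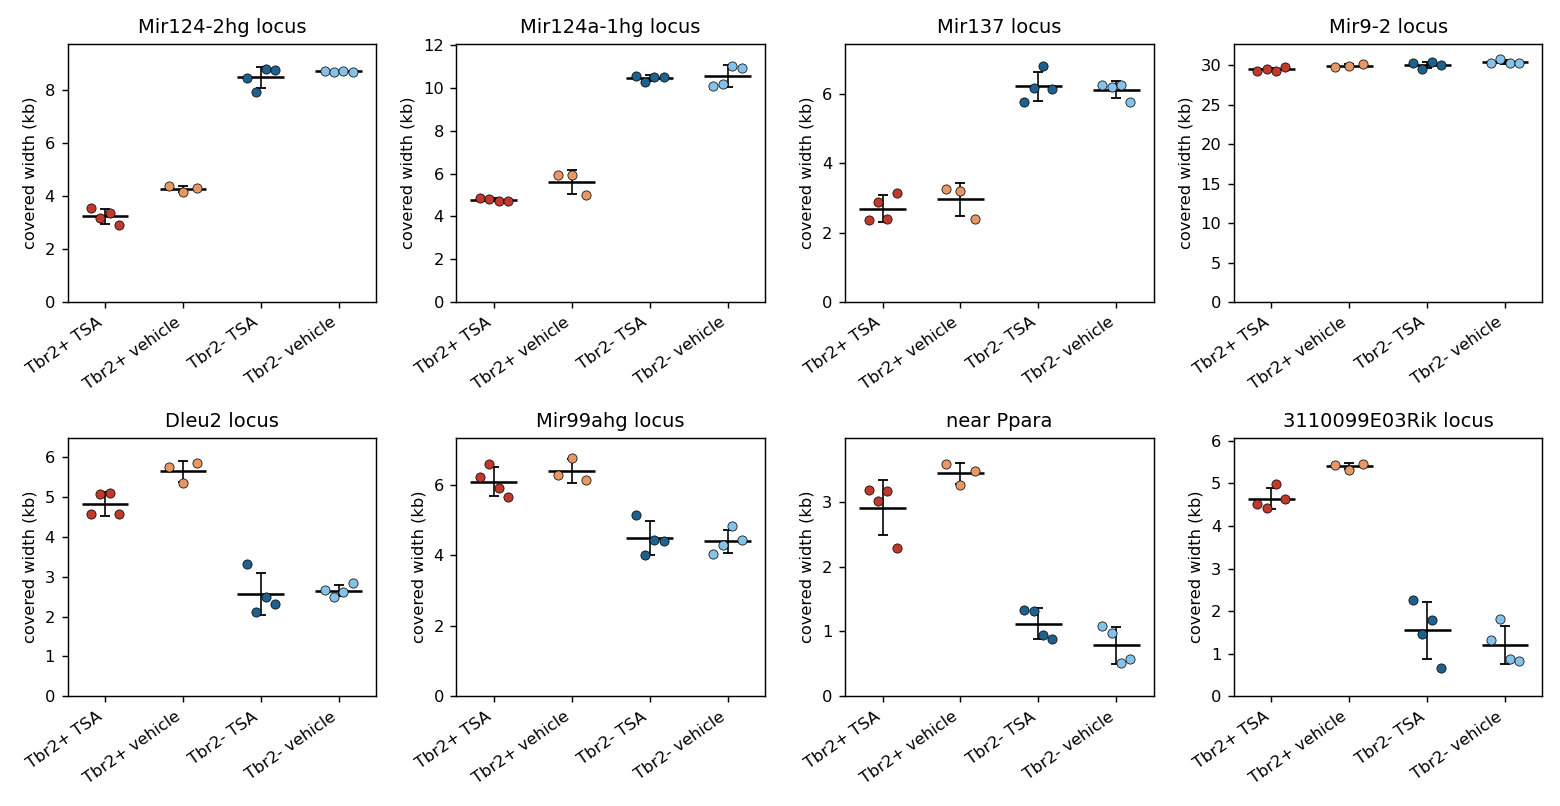
Covered width in kb at 8 named distal loci, 1 point per library, with the group mean (bar) and SD (whiskers), for Tbr2-positive TSA, Tbr2-positive vehicle, Tbr2-negative TSA and Tbr2-negative vehicle libraries. At Mir124-2hg, Mir124a-1hg and Mir137 the Tbr2-positive points lie below the Tbr2-negative points, at Dleu2, Mir99ahg, 3110099E03Rik and near Ppara they lie above, and at Mir9-2 they overlap.

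For several genes every region held by all libraries was called the same way. All 6 regions nearest to Pou3f3 and all 5 nearest to Nfib, a nuclear factor of cortical neurons and glia, were wider in Tbr2-positive libraries, of which 3 and 4 were also called without centring, and 4 and 4 without the Tbr2-positive TSA libraries. The Nfib region at chr4:82531303-82533730, 24.6 kb from the gene and over Gm11266, covered 1862, 1804, 1519 and 1614 bp in Tbr2-positive TSA and 1839, 2222 and 2320 bp in Tbr2-positive vehicle libraries. It covered 979, 1300, 1118 and 1055 bp in Tbr2-negative TSA and 1225, 1060, 1509 and 1217 bp in Tbr2-negative vehicle libraries. The populations do not overlap there, while all 6 regions of Pou3f3 overlap in bp. All 4 regions nearest to Tmem182 and all 3 nearest to Ppara were wider with and without centring, and 3 and 3 without the Tbr2-positive TSA libraries.

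On the other side, 7 of 13 regions nearest to Gas8 and 4 of 8 nearest to Rhou were narrower in Tbr2-positive libraries, and 11 and 5 without centring. Without the Tbr2-positive TSA libraries 2 and 2 were narrower. These 2 genes flank a cluster of 5S ribosomal RNA genes on chromosome 8. Of the 14 regions near upper-layer genes 9 were wider and 3 narrower, 5 and 3 without centring, and 6 and 0 without the Tbr2-positive TSA libraries. Of the 22 near genes of the cortical transcription factor list, which shares Lhx2 with the upper-layer list, 10 were wider and 2 narrower, 7 and 6 without centring, and 9 and 1 without those libraries. The 6 wider regions of Pou3f3 are among the 9, and the 5 of Nfib are among the 10. Neighbouring regions share libraries and may share a domain, so these counts are not independent.

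The background for these lists is 17% wider and 14% narrower with centring, and 2.75% and 35.1% without. With centring and without the Tbr2-positive TSA libraries it is 4.59% and 6.93%. Radial glia genes had 1 wider and 0 narrower of 6 regions, basal progenitor genes 1 and 0 of 4, interneuron genes 0 and 0 of 3, Cajal-Retzius genes 0 and 1 of 3, deep-layer genes 0 and 0 of 2, and vascular genes 0 and 0 of 1. Without centring these were 1 and 2 for radial glia, 1 and 1 for basal progenitor, 0 and 1 for interneuron, 0 and 1 for Cajal-Retzius, 0 and 0 for deep-layer and 0 and 1 for vascular genes. Without the Tbr2-positive TSA libraries, with centring, none of these 6 lists had a call. No region near a microglial, oligodendrocyte precursor or erythroid gene of the lists was held by all 15 libraries. The wider basal progenitor region, chr1:134062685-134064536, is 10.3 kb from Btg2, an antiproliferative gene of neurogenic progenitors. It covered 462 to 1328 bp in Tbr2-positive and 280 to 1148 bp in Tbr2-negative libraries, which overlap (limma log2 difference 0.89, SE 0.241, adjusted p = 0.0093). The limma adjusted p was 0.0498 without centring, 0.0619 without the Tbr2-positive TSA libraries, and 0.0928 with neither, so no call was made without those libraries.

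Presence, whether a library holds a region at all, was compared over all 56482 regions with Fisher's exact test and Benjamini-Hochberg adjustment. Between 7 Tbr2-positive and 8 Tbr2-negative libraries 63 distal regions passed, 2 held more often and 61 less often by Tbr2-positive libraries, against a background of 0.0177% and 0.512% of all regions. Both counts are near that background. Each of the 63 regions was held by every library of one population and by none of the other, at the smallest p the design allows (0.000155, adjusted p = 0.0294). At an unadjusted p below 0.05, 168 distal regions were held more often and 989 less often (background 0.984% and 7.39%). The Tbr2-positive TSA libraries, with the shortest lists, enter this test. Without those 4 libraries 0 passed, and at an unadjusted p below 0.05 384 were held more often and 144 less often. A test with 3 against 8 libraries has a larger smallest p, so that 0 says nothing about stability. Also 0 passed when any 1 of those 4 or any 1 Tbr2-negative library was left out. With lists cut to the 31823 strongest peaks of each library, 16 were held more often and 23 less often. Shares over all regions are not given without those 4 libraries or at equal length. The change in balance therefore cannot be assigned to distal regions.

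The widest of the 61 lies at chr14:64573698-64576166, 76.3 kb from Kif13b and beside Mir124a-1hg. It was at 0 bp in all Tbr2-positive libraries and covered 2009, 1140, 1261 and 1150 bp in Tbr2-negative TSA and 1235, 1375, 1975 and 1231 bp in Tbr2-negative vehicle libraries. The next, at chr3:4796958-4798868, contains the printed start window of 1110015O18Rik and is 419 kb from Zfhx4, a zinc-finger and homeobox gene. It covered 1696, 1063, 1320 and 567 bp in Tbr2-negative TSA and 1021, 1874, 1695 and 1338 bp in Tbr2-negative vehicle libraries.

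The region with the Snhg11 window, chr2:158375249-158376226, covered 482, 839, 568 and 403 bp in Tbr2-negative TSA and 404, 684, 611 and 547 bp in Tbr2-negative vehicle libraries. The region with the 4632428C04Rik window, chr16:30008400-30009390, is nearest to Hes1, a Notch effector of radial glia, and covered 976, 422, 658 and 577 bp in Tbr2-negative TSA and 809, 737, 897 and 689 bp in Tbr2-negative vehicle libraries. Others of the 61 were nearest to Topaz1, Ythdf3 (2 adjoining regions), Cetn3, Cap1 and Tle4, a corepressor gene of deep-layer neurons, at 292 kb. No Tbr2-positive library held a peak in any of them.

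Both regions held only by Tbr2-positive libraries were near genes outside the lists. The region at chr1:41676442-41677478, 820 kb from Tmem182, covered 398, 377, 641 and 672 bp in Tbr2-positive TSA and 598, 913 and 218 bp in Tbr2-positive vehicle libraries. The region at chr3:28225066-28225806, 36.1 kb from Tnik, a kinase gene of Wnt signalling, covered 528, 167, 212 and 289 bp and 275, 505 and 565 bp in the same groups. Neither had a peak in any of the 8 Tbr2-negative libraries.

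With TSA alone, 15 distal regions (background 0.0868%) were in all 4 Tbr2-positive and 0 of 4 Tbr2-negative libraries, and 384 (background 3.24%) showed the reverse. With vehicle alone, 308 (3.05%, background 1.73%) were in all 3 Tbr2-positive and 0 of 4 Tbr2-negative libraries, and 208 (2.06%, background 1.47%) showed the reverse. A region held by exactly 3 or 4 libraries enters the set through the group that holds it, so these counts describe the lists. At equal list length 68 with TSA (1.46% of the distal regions there, background 0.812%) were in every Tbr2-positive and no Tbr2-negative library, and 65 (1.39%, background 1.34%) showed the reverse. With vehicle the counts were 153 (3.28%, background 1.5%) and 105 (2.25%, background 1.9%), so the counts held by Tbr2-negative libraries alone were near the background.

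TSA was compared with vehicle first by the share of each library's regions that were distal. Distal regions were 12.7, 13.8, 12.9 and 12.2% of the regions in Tbr2-positive TSA libraries and 17.0, 16.8 and 16.7% in Tbr2-positive vehicle libraries, without overlap. They were 15.6, 15.9, 16 and 14.2% in Tbr2-negative TSA libraries and 15.8, 16.6, 16.8 and 16.1% in Tbr2-negative vehicle libraries, which overlap. Averaged over both populations the share was 2.40 percentage points lower with TSA (difference -2.40, exact permutation test within populations, two-sided, p = 0.00163). The number of distal regions was 3024 ± 352 in Tbr2-positive TSA (SD, n = 4), 6171 ± 342 in Tbr2-positive vehicle (n = 3), 5403 ± 847 in Tbr2-negative TSA and 6094 ± 555 in Tbr2-negative vehicle libraries (n = 4 each).

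Since fainter regions enter longer lists, the share was also taken from the 31823 strongest peaks of each library. It was then 11.8, 11.6, 12 and 11.8% in Tbr2-positive TSA and 13.3, 13.2 and 13.3% in Tbr2-positive vehicle libraries, and 12.2, 9.93, 12.2 and 11.4% in Tbr2-negative TSA and 12.5, 12.8, 13 and 12.8% in Tbr2-negative vehicle libraries. Neither population overlaps at equal length, and the difference was -1.38 points (exact permutation test, p = 0.000408). The 4 Tbr2-positive TSA libraries had the fewest peaks, and the part of list length beyond this adjustment was not tested.

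Sequencing lanes, as the file names give them, were also compared in the deposited lists. The share with TSA minus that with vehicle was -3.71 points in lane 1 and -3.84 in lane 2 for Tbr2-positive libraries. For Tbr2-negative libraries it was -0.58, -0.85 and -1.87 points in the 3 lanes. Each value rests on 1 or 2 libraries per side. In lanes 1 and 2 the Tbr2-positive TSA lists were shorter than the Tbr2-positive vehicle lists, so lane does not separate treatment from list length. The TSA difference was larger in Tbr2-positive than in Tbr2-negative libraries by -3.01 points in the full lists (exact permutation test of the TSA differences between populations, p = 0.0286, the smallest it can give). At equal length that gap was -0.11 points (exact permutation p = 0.914). Between the populations the share differed by -1.02 points (exact permutation test within treatments, p = 0.0735) in the full lists and by 0.42 points (p = 0.122, exact) at equal length.

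**Figure D4:**
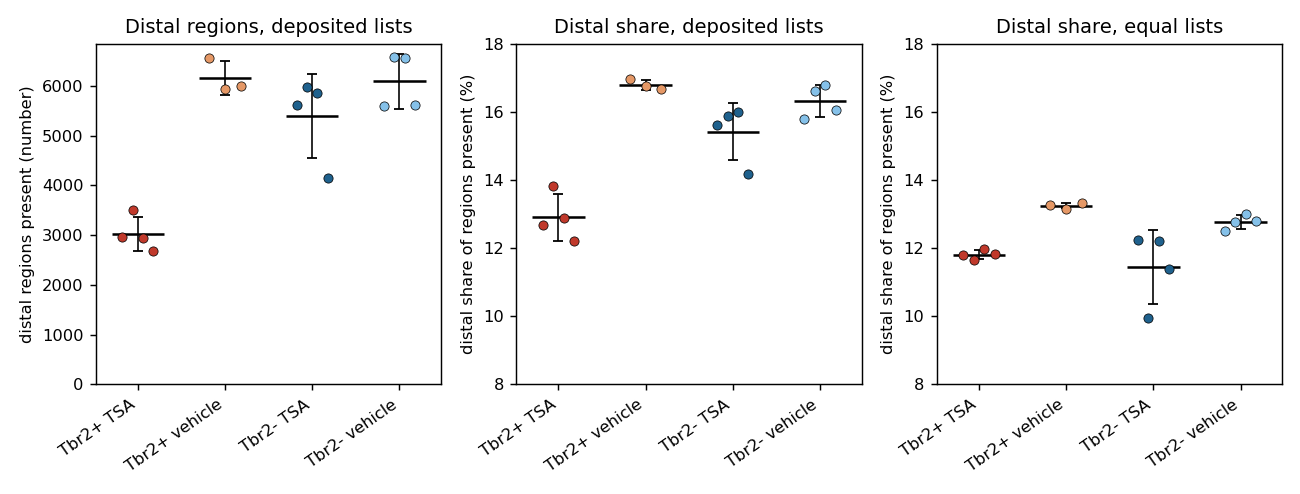
Number of distal regions (left) and percent of a library's regions that are distal in the deposited lists (middle) and in lists of 31823 peaks (right; percent axes start at 8), 1 point per H3K9ac library with group mean (bar) and SD (whiskers). In the deposited lists the Tbr2-positive TSA points (12.2 to 13.8%) lie below all others, and in equal lists below all vehicle points.

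Widths of distal regions were also set against those of other regions in the same library. In the deposited lists, the median width of distal regions was 314 ± 10.5 bp in Tbr2-positive TSA (SD, n = 4) and 325 ± 10.8 bp in Tbr2-positive vehicle libraries (n = 3), which overlap. That of other regions was 722 ± 34.8 bp in Tbr2-positive TSA and 552 ± 37.6 bp in Tbr2-positive vehicle libraries, without overlap. Between these groups the other regions, and not the distal ones, had medians that do not overlap. In Tbr2-negative libraries the distal median was 318 bp with TSA and 320.2 bp with vehicle, and the other median 619 bp with TSA and 591 bp with vehicle, and both overlap. The ratio of distal to other median width differed by -0.155 in Tbr2-positive libraries (exact permutation p = 0.0286, the smallest possible, adjusted over 4 comparisons 0.0571), by -0.027 in Tbr2-negative libraries (exact permutation p = 0.457) and by -0.091 over both (exact permutation test within populations, p = 0.0069).

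At equal list length both medians were lower with TSA in Tbr2-positive libraries. The distal median was 358.5 bp with TSA and 493 bp with vehicle, and the other median 783 bp with TSA and 901 bp with vehicle, both without overlap. The ratio differed by -0.0897 in Tbr2-positive libraries, without overlap, and by 0.0113 in Tbr2-negative libraries, which overlap (exact permutation p = 0.771). Over both populations the difference was -0.039 and did not pass (exact permutation test, p = 0.0743).

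No distal region passed the presence test for TSA, against a background of 0%. At an unadjusted Fisher p below 0.05, 4 were held more often and 704 less often by the 8 TSA than by the 7 vehicle libraries, where the background is 0.046% and 4.96%. The Fisher test needs 176 regions at its smallest p to reach an adjusted p of 0.05. The exact test stratified by population also gave 0 at the adjusted threshold, but strata raise its smallest p, so that 0 adds no support. The region with the smallest p and the widest peaks among those held less often, chr2:169445288-169445961 near Tshz2, was at 0 bp in all 8 TSA libraries. It covered 224, 612 and 147 bp in Tbr2-positive vehicle and 447, 252, 445 and 473 bp in Tbr2-negative vehicle libraries. Every Tbr2-positive vehicle library and no Tbr2-positive TSA library held 729 distal regions (7.22%, background 4.56%), and 0 showed the reverse (background 0.00885%). For Tbr2-negative libraries 15 were held by TSA alone (background 0.14%) and 41 by vehicle alone (background 0.299%).

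At equal list length 10 distal regions were held by TSA alone in Tbr2-positive libraries (0.215%, background 0.14%) and 2 in Tbr2-negative libraries (0.0429%, background 0.0376%). Those held by vehicle alone numbered 105 in Tbr2-positive libraries (2.25%, background 0.836%) and 39 in Tbr2-negative libraries (0.837%, background 0.372%). In the vehicle-only regions no TSA library of the population had a peak among its 31823 strongest. The rule of at least 3 libraries applies here too, so these counts also describe the lists.

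In width, 0 distal regions were wider and 2 narrower with TSA by limma, against a background of 0.0412% and 0.0941%. The first, chr3:78966708-78967439, is 95.1 kb from Rapgef2, a guanine nucleotide exchange factor gene of neuronal migration. It covered 331, 258, 274 and 274 bp in Tbr2-positive TSA and 707, 466 and 592 bp in Tbr2-positive vehicle libraries, and 292, 298, 315 and 332 bp in Tbr2-negative TSA and 653, 485, 504 and 409 bp in Tbr2-negative vehicle libraries. All 8 TSA values lie below all 7 vehicle values (limma log2 difference -0.71, SE 0.134, adjusted p = 0.0416). The second, chr6:114562572-114563450, is 79.3 kb from Hrh1 at the edge of its dense group of regions, and its treatments overlap (limma log2 difference -0.91, SE 0.176, adjusted p = 0.0460).

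Neither call held in every setting: 0 passed without the Tbr2-positive TSA libraries and 0 with lane in the model, where both had a limma adjusted p of 0.0590. Leaving out 1 library gave 0 to 8 narrower or wider regions, with 8 without Tbr2-negative TSA library 1, 7 without Tbr2-negative TSA library 2, and 0 without Tbr2-negative vehicle library 4, Tbr2-positive TSA library 1 or 3 or Tbr2-positive vehicle library 1 or 2. Without centring 56 were narrower and 0 wider. Dropping the centring shifts every region by the same amount: at chr3:78966708-78967439 the log2 difference went from -0.71 to -0.86. At an unadjusted p below 0.05, the fit without the Tbr2-positive TSA libraries had 58 wider and 87 narrower. Shares over all regions fitted are not given for these settings, so the counts cannot be assigned to distal regions.

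Widths of distal regions were set beside the RNA of the noncoding genes under them. For 139 long noncoding genes with counts that passed the filter, the widest distal region over each in all 15 libraries was taken with the RNA difference between Tbr2-positive and Tbr2-negative vehicle samples. Centred width and RNA had the same sign in 86 of 139, with Pearson r = 0.43 and Spearman rho = 0.43 across genes. This count is not given without centring. Genes are not independent replicates, both measures compare the same populations, and the values are a description. Where width and RNA both passed, 23 of 24 had the same sign, 16 higher and 7 lower in Tbr2-positive samples. The exception was Gm17750, whose domain was called wider only after centring and whose RNA was lower (edgeR log2 difference -0.75, adjusted p = 0.00624). Its centred log2 width difference was 0.15. Dropping the centring lowers every region's difference by the same amount, at Dleu2 from 1.24 to 1.01, so the sign at Gm17750 turns.

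For 16 of the 24 the width was also called without centring, and all 16 had the same sign. With the TSA RNA samples in place of the vehicle ones, 17 of 18 genes that passed on both sides agreed in sign. For 816 nearest protein-coding genes the sign was shared in 428 (r = 0.02), and in 48 of 87 where both passed. Counting by strand is not given in the sources used here, so a noncoding gene that overlaps another is uncertain.

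**Figure D5:**
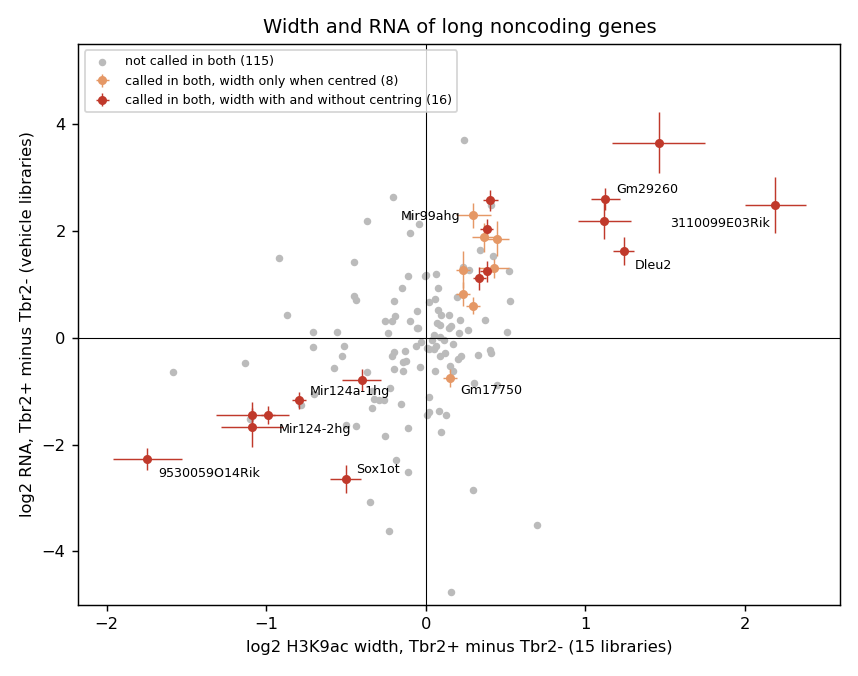
Log2 RNA difference, Tbr2-positive minus Tbr2-negative vehicle samples, against the log2 difference in centred width for 139 long noncoding genes. The width is that of the widest distal region over the gene, with SE bars on genes called on both axes. Of the 24 genes that passed on both axes, 16 lie in the upper right and 7 in the lower left, and 1, Gm17750, lies in the lower right.

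The miR-124 host genes were lower in RNA as well as narrower in H3K9ac. Mir124-2hg RNA was 118 and 175 CPM in Tbr2-positive TSA and 149, 176 and 141 CPM in Tbr2-positive vehicle samples, against 256 and 228 CPM in Tbr2-negative TSA and 404, 439 and 431 CPM in Tbr2-negative vehicle samples. The populations do not overlap with either treatment (edgeR log2 difference -0.72, adjusted p = 0.0371 with TSA, and -1.45, SE 0.164, adjusted p = 6.23e-05 with vehicle). Mir124a-1hg RNA was 88.9 and 117 CPM in Tbr2-positive TSA and 108, 96.3 and 89.5 CPM in Tbr2-positive vehicle samples, against 121 and 154 CPM in Tbr2-negative TSA and 235, 195 and 230 CPM in Tbr2-negative vehicle samples. With TSA the population difference of -0.42 did not pass (edgeR adjusted p = 0.223), and with vehicle it was lower in Tbr2-positive samples (edgeR log2 difference -1.17, adjusted p = 0.000232).

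9530059O14Rik RNA was 7.76 and 5.60 CPM in Tbr2-positive TSA and 9.39, 9.27 and 12.4 CPM in Tbr2-positive vehicle samples, against 20.04 and 20.15 CPM in Tbr2-negative TSA and 47.5, 48.8 and 53.5 CPM in Tbr2-negative vehicle samples. It was lower in Tbr2-positive vehicle samples (edgeR log2 difference -2.27, adjusted p = 1.67e-05), and in Tbr2-negative samples it was lower with TSA than with vehicle (edgeR log2 difference -1.31, adjusted p = 0.0481). Snhg11 and 1110015O18Rik, whose start windows are printed above, were also lower in Tbr2-positive vehicle samples (edgeR log2 differences -1.10 and -1.07, adjusted p = 0.0331 and 0.0380). No RNA value is given here for 4632428C04Rik, whose window is printed as well.

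RNA of several genes over wider regions was higher in Tbr2-positive samples. Mir99ahg RNA was 2942 and 3453 CPM in Tbr2-positive TSA and 6652, 5426 and 4656 CPM in Tbr2-positive vehicle samples, against 720.2 and 926.5 CPM in Tbr2-negative TSA and 1515, 1365 and 1196 CPM in Tbr2-negative vehicle samples (edgeR log2 difference 2.04, adjusted p = 1.21e-05 with vehicle). Dleu2 RNA was 324, 247 and 214 CPM in Tbr2-positive vehicle and 119, 70.7 and 64.5 CPM in Tbr2-negative vehicle samples (edgeR log2 difference 1.62, adjusted p = 0.000914). Gm29260 and 3110099E03Rik were higher too (edgeR log2 differences 2.60 and 2.49, adjusted p = 7.22e-06 and 0.00421), as were Mir9-3hg and Mir100hg (1.11 and 0.60, edgeR adjusted p = 0.0023 and 0.0173).

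Other domains showed no such call. C130071C03Rik, the long noncoding gene of the widest domain, differed by 0.08 (edgeR adjusted p = 0.719), Malat1 by 0.23 (adjusted p = 0.644) and Tunar by -0.64 (adjusted p = 0.399). Of the coding neighbours, Scrt2, Nfib and Pou3f3 were higher in Tbr2-positive vehicle samples (edgeR log2 differences 1.69, 1.19 and 0.65, adjusted p = 0.0295 for Pou3f3). Tle4 and Mef2c, a factor of maturing neurons, were lower (edgeR log2 differences -1.93 and -2.18).

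Of 3125 nearest protein-coding genes tested, 467 were higher and 571 lower in Tbr2-positive than in Tbr2-negative vehicle samples by edgeR, 14.9% and 18.3% against 9.96% and 11.5% of all genes. With TSA 205 were higher and 304 lower, against a background of 4.19% and 5.13%. The 161 genes nearest to a region of every Tbr2-negative vehicle and no Tbr2-positive vehicle library had 16 higher and 39 lower, with a median log2 difference of -0.18. The 238 nearest to a region of every Tbr2-positive vehicle and no Tbr2-negative vehicle library had 43 higher and 44 lower, so the counts there were nearly level.

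For TSA against vehicle, 0 of the 3125 genes passed in Tbr2-positive samples by edgeR (background 0%), and 561 had an unadjusted p below 0.05 (18%, background 15.8%). DESeq2 called 193 of 2994 (6.45%, background 5.93%), so both shares are near those of all genes. In Tbr2-negative samples 35 were higher and 3 lower with TSA by edgeR (background 0.817% and 0.359%). DESeq2 called 331 of 2956 (11.2%, background 11.7%). The share at an unadjusted p below 0.05 was 21.5%, against a background of 20.1%. The Tbr2-negative count rests on single samples: it ranged over 0 to 138 when 1 sample was left out, with 138 without Tbr2-negative vehicle sample 2, 77 without Tbr2-positive TSA sample 1 and 73 without Tbr2-positive vehicle sample 1. It was 0 without Tbr2-positive vehicle sample 2, Tbr2-negative vehicle sample 1 or 3, or either Tbr2-negative TSA sample. For the long noncoding genes overlapped by a distal region 0 of 289 were higher and 4 lower with TSA in Tbr2-negative samples.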

How the data were processed

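H3K9ac ChIP-seq peak lists of 15 libraries and gene-level RNA-seq tables of 10 samples were analysed. The 4 inputs enter only through the authors' peak calls. The RNA protocol in the labels names whole tissue, while the series text names sorted nuclei.

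Peaks were called with MACS 2.1.0.20140616 at a q-value threshold of 0.1, with 1 input per group, duplicates removed, broad calling off and the larger data set scaled to the smaller, per the file headers. Reads were placed on mm10, and SAMtools and MACS2 were used, per the submitters' processing notes; no source names the aligner or the gene counter. The deposited peak lists give each peak's length, its pileup signal (coverage), its −log10 p-value and q-value and its fold enrichment as a ratio, of which length and −log10 q were used. The deposited RNA tables hold raw read counts per gene, 18567111 to 26282652 per sample, with no entry that names no gene.

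Overlapping peaks were merged over all libraries. Presence is at least 1 peak, and covered width the summed peak length of 1 library in a region. Narrow calling and scaling to the input make both depend on depth and enrichment. Protein-coding genes, noncoding genes and sequences came from RefSeq GRCm38.p6, and regions near a gene missing from that table would count as distal. Of 3918 nearest genes 3845 matched the RNA tables, as did 828 of 1829 overlapped long noncoding genes. Presence was tested with Fisher's exact test, shares and width ratios with exact permutations over libraries, widths with limma 3.58.1, and counts with edgeR 4.0.16 quasi-likelihood tests (TMM, filterByExpr, 20078 genes) with DESeq2 1.42.0 as an alternative. Adjusted p-values are Benjamini-Hochberg over all regions or genes. Each script was tested on simulated data. Python 3.11.15 and R 4.3.3 were used.

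No 2 libraries shared more than 0.024% of peaks with identical coordinates. The members and gene lists were chosen with earlier results of these data known. Regions were named by rule: up to 8 per test and direction by smallest p (the 4 smallest as not passing where fewer than 5 passed), the 8 widest, those over microRNA or named long noncoding genes, the 8 genes with most regions, and those near listed genes. The 3 printed start windows and the genes of other passing regions were chosen after their values were seen. Alternatives were equal list lengths, stricter q, other merges and distances, lane and replicate terms, no centring, leaving out libraries and, added after seeing the data, leaving out the Tbr2-positive TSA libraries.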

Additional observations from a re-analysis of the deposited data

Results flagged for a closer look

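In groups of 4 libraries, a library whose gap to its nearest neighbour took up most of the group's range was marked by Dixon's criterion. Of 117 such groups 8 were marked, and chance marks about 1 in 20. At the microRNA domains, Tbr2-positive TSA library 4 covered 22439 bp at Mir9-3hg and Tbr2-negative vehicle library 4 covered 5761 bp at Mir137, both below the rest of their group, and Tbr2-negative vehicle library 2 covered 30769 bp at Mir9-2, above it. At chr2:167777260-167778331 Tbr2-positive TSA library 2 covered 253 bp and Tbr2-negative vehicle library 2 covered 939 bp. At chr3:96486171-96487305 Tbr2-positive TSA library 4 covered 616 bp, and at chr8:109359291-109361407 near Pmfbp1 Tbr2-negative TSA library 1 covered 1682 bp. In lists of equal length, the ratio of distal to other median width was 0.599 in Tbr2-negative TSA library 2, above the other 3.

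The difference between TSA and vehicle was itself different between the populations in 3 measures, by an exact permutation test at the smallest p it can give (0.0286). For the distal share of the deposited lists, the Tbr2-positive difference minus the Tbr2-negative one was -3.01 percentage points. For the ratio of distal to other median width it was -0.128 in the deposited lists and -0.101 at equal length. For the distal share at equal length it was -0.109 points (exact permutation p = 0.914). The test takes the vehicle means as known. The Tbr2-positive TSA libraries had the fewest peaks and the shallowest input, whose part was not tested beyond the values at equal length.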

How the results depend on the processing

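The 16 distal regions named as wider or narrower in Tbr2-positive libraries kept direction and call without centring, with lane, with the replicate block and without any 1 library, and 15 had a value at the stricter q. The presence calls between populations did not hold in that way: against 63 they numbered 39 in equal lists and 197 among regions in 4 to 11 libraries, and 0 in the stratified test (unadjusted 298 higher, 1003 lower), with the replicate block and without the Tbr2-positive TSA libraries. With peaks up to 500 bases apart merged, 2 named regions, chr1:41751438-41752792 and chr13:81944988-81946464, lay in wider regions whose presence did not differ between populations, a difference of 0. The population share turned to 0.42 points in equal lists, and the TSA width ratio there was -0.039. Fewer peaks enter by construction in equal lists, and fewer libraries or strata raise the smallest p; the cause of the other changes was not tested.

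Narrower widths with TSA numbered 2, against 56 without centring and 1 at the stricter q. They numbered 0 with the replicate block, with lane and without the Tbr2-positive TSA libraries with or without centring. The share over all regions fitted is not given beside the 56. The widths between populations gave 158 calls without those libraries and 153 without centring as well. Nearest genes changed in RNA by TSA numbered 71 in Tbr2-positive and 181 in Tbr2-negative samples with no filter, and 193 and 331 with DESeq2.

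Leaving out 1 library gave 0 to 82 presence calls between populations (0 in 12 of 15 cases), 0 to 8 TSA width calls (8 without Tbr2-negative TSA library 1, 7 without library 2), -1.21 to -0.861 points for the population share and -2.54 to -2.20 for the TSA share. The population share passed without Tbr2-positive vehicle library 1, 2 or 3 or Tbr2-negative vehicle library 1 (-1.20 to -1.09 points, exact permutation p = 0.0333 to 0.0486). For RNA the counts were 0 to 7 and 0 to 138 for TSA in Tbr2-positive and Tbr2-negative samples, and between populations 212 to 532 with TSA (509 with all samples; 310 and 323 without Tbr2-positive TSA sample 1 and 2, 212 and 277 without Tbr2-negative TSA sample 1 and 2) and 804 to 1055 with vehicle.

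Same-numbered libraries deviated together only weakly, with r of -0.012 to 0.050 in widths and -0.053 to 0.117 in RNA. Yet 8 of 15 H3K9ac libraries and 8 of 10 RNA samples were closest to their own number, so pairing by replicate number is not settled. With the replicate block, the presence count was 0, the TSA width count 0, the TSA RNA counts 1 and 2 and the TSA share p = 0.0031 (exact permutation). Replicate numbers follow the sample titles; for Tbr2-positive vehicle H3K9ac libraries 2 and 3 the file names carry 3 and 4, so the pairing check, the block and the names of left-out libraries rest on the titles. Depth limits presence: a library with a short list lacks faint regions, and a missing peak is not shown to be missing acetylation.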
